A study of Mus musculus with 36 samples.

Results

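Nrl, Nr2e3, Crx and Esrrb, 4 transcription factors of rod photoreceptors, were followed across mouse fibroblasts turned into photoreceptor-like cells with chemicals and rods taken from the retina at 7 ages. The members were taken by symbol, and 4 of 4 were found among the 15289 genes of the deposited table. All cells were of the Nrl-GFP strain, which carries a green fluorescent protein reporter under the Nrl promoter. The groups were mouse embryonic fibroblasts at passage 2 (MEF, n = 3), intermediates at day 5 (n = 3) and day 8 (n = 3) of a treatment with 5 chemicals in photoreceptor induction medium, and the reprogrammed cells at day 11 (CiPC, n = 3). Rods of the retina are written by postnatal day: P2 and P4 rods had 2 libraries each, P5, P6 and P14 rods had 3 each, and P10 and P28 rods had 4 each. P5 rods came with the cultured cells, and the labels list the other rods as reused from an older series, except P10 replicate 3 and P14 replicate 3, for which no older sample is listed. These 2 libraries are counted with the older series below, although the labels do not place them there. The labels do not name the chemicals. Nor do they say that the replicates are separate cultures or mice, and p-values measure only the spread between these libraries. They give sorting by the promoter reporter for every sample. Nrl is therefore close to what the cells were sorted on, and the part of the sort in its level was not tested.

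The 4 factors form the core of the program that sets and keeps rod identity. Crx is a homeodomain factor of the OTX family that activates genes of rods and cones alike. Nrl, a basic leucine zipper protein of the MAF family, directs photoreceptor precursors to the rod fate, and the orphan nuclear receptor Nr2e3 acts with it, holding cone genes down while rod genes are switched on. Esrrb, the estrogen-related receptor beta, is a nuclear receptor of mature rods, where it is known for a role in survival and energy supply, and it is also known as a pluripotency factor of embryonic stem cells.

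The genes lie apart in the genome. In GRCm38 with GENCODE M21, the protein-coding gene Nrl spans bases 55518978 to 55524981 of chromosome 14 on the minus strand, and Crx spans 15865947 to 15879968 of chromosome 7 on the minus strand. Nr2e3 spans 59942771 to 59960659 of chromosome 9 on the minus strand, where the antisense gene Gm7616 and the long non-coding RNA gene Gm15507 overlap it. Neither of these has a row in the table, and the strand setting of the libraries is not given in the sources used here. Esrrb spans 86361117 to 86521628 of chromosome 12 on the plus strand.

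Crx and Otx2 bind a core written TAATCC, so the 250 bases before each RefSeq start (GRCm38.p6) were searched for it and for its shorter form TAATC, for the MAF half-site TGCTGA, and for the nuclear receptor half-sites AGGTCA and AAGTCA, on both strands. The promoters of Crx, Nr2e3 and Nrl are shown because the first 2 hold a match to the homeodomain core and the last belongs to the gene whose promoter drives the sorted reporter. The RefSeq starts of Nrl and Nr2e3 lie inside the GENCODE genes, so these windows do as well. Capitals mark the matches, which read GGATTA or GATTA in the direction of the gene.
Crx, chr7:15879956-15880205, minus strand: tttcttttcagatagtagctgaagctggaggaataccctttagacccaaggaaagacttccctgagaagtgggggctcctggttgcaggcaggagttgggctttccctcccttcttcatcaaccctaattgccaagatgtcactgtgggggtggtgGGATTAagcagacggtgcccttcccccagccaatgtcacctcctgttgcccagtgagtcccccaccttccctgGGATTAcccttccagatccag
Nr2e3, chr9:59950080-59950329, minus strand: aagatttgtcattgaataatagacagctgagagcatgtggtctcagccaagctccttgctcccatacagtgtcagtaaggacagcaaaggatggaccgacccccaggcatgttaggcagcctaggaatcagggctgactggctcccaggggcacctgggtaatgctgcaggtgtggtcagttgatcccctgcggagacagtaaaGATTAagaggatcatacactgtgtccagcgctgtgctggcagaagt
Nrl, chr14:55524253-55524502, minus strand: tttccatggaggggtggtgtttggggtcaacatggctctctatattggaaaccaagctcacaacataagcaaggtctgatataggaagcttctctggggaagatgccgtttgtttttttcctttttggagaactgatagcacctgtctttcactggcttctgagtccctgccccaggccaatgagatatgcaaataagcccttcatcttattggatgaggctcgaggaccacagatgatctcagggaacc
The Crx promoter holds TAATCC at 2 places on the opposite strand, from 94 to 89 and from 21 to 16 bases before the start. TAATCC is found in 6.25% of 32851 promoter windows of the same length. The Nr2e3 promoter holds the shorter TAATC, which every TAATCC also contains, from 46 to 42 bases before the start, a sequence present in 19.8% of windows. No searched motif was found in the Nrl window. Esrrb has 2 promoters in the table, and the first holds AAGTCA from 144 to 139 bases before the start, as 13.1% of windows do. TGCTGA and AGGTCA, present in 16.1% and 14.0% of windows, were found in none of the windows of the 4 genes.

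Values are the authors' normalized CPM (counts scaled to library size), which are not whole numbers and sum to a different total in each library, and the depth behind them is unknown. The values of a library summed to between 719752 (P2 replicate 1) and 2277242 (P28 replicate 2), with the highest sums in the oldest rods. As a check of the labels, of 25 rod genes Guca1b and Slc24a1 were under 1 CPM in every P2 library and none was in rods of P4 to P28, while in MEF 18 of them were under 1 CPM in every library. P10 replicate 4 and P14 replicate 3 stood apart from the other libraries of their age. For P14 replicate 3 no older sample is listed either. Nrl was at 35.1% of the mean of the others in P10 replicate 4 and at 30.6% in P14 replicate 3, while Crx was at 98.4% and 82.8%. Nr2e3 was at 83.4% and 42.5%, and Esrrb at 54.0% and 97.9%. The sum of 25 rod genes was at 46.9% and 51.0%, and the mitochondrial share of the column was 3.87% against 11.8% to 19.1% in the other P10 libraries and 3.95% against 7.92% to 10.6% in the other P14 libraries. Their part in the results was not tested, and values without them are given where they change a call.

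**Figure D1:**
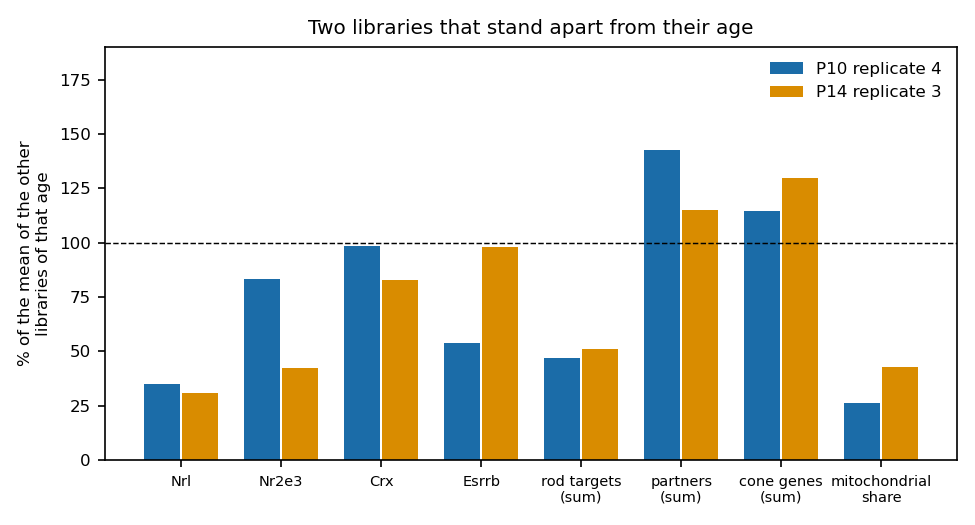
Bars give P10 replicate 4 (blue) and P14 replicate 3 (orange) as a percentage of the mean of the other libraries of the same age, for the 4 factors, for sums over gene lists and for the mitochondrial share of the column. Nrl lies near 35.1% and 30.6% in the 2 libraries, Crx at 98.4% and 82.8%, and the sums over partner factors and cone genes lie above 100%.

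Before day 11 the 4 factors were near the bottom of the scale in every library. Nrl was at 0.271, 0.170 and 0.270 CPM in MEF, 0.0411, 0.0823 and 0.331 at day 5 and 0.182, 0.232 and 0.0507 at day 8, and these ranges overlap. Nr2e3 was listed at 0 in 1 library of each of these groups and reached at most 0.382 CPM. Crx ran from 0.186 to 0.579 CPM in MEF and from 0.438 to 0.993 at day 8, again with overlap.

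Esrrb differed from the other 3 in this window. It was at 0.315, 0.243 and 0.613 CPM in MEF, 0.470, 0.470 and 0.623 at day 5, and 0.896, 1.26 and 1.58 at day 8. All 3 day 8 libraries were above all 3 of day 5. None of the 4 factors passed the filter on low values between MEF and day 5 or between day 5 and day 8, where 28.4% and 6.61% of the genes tested were called (limma, adjusted p under 0.05 and at least 2-fold). Without that filter, Esrrb was higher at day 8 than at day 5 by 0.55 ± 0.13 (log2 of CPM + 1, SE, adjusted p = 0.00721 by limma), which is under 2-fold and was not called. For the other 3 factors that adjusted p was at least 0.353, and between MEF and day 5 it ran from 0.296 for Esrrb to 0.787 for Crx. At an unadjusted p under 0.05 the count was thus 0 of 4 between MEF and day 5 and 1 of 4, Esrrb, between day 5 and day 8, where 77% and 51.5% of all genes passed that level in the same fits.

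At day 11, Nrl, Nr2e3 and Crx were present in every CiPC library and Esrrb was not above its day 8 level. Nrl stood at 30.9, 30.4 and 30.7 CPM. Nr2e3 stood at 21.4, 20.5 and 20.4 CPM. Crx stood at 97.8, 94.5 and 86.8 CPM. The CiPC libraries lay close together and did not overlap with MEF, day 5 or day 8 for any of these 3 genes. In a bulk library, fewer cells with a transcript and less transcript per cell cannot be told apart.

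Against MEF, Crx rose by 6.09 ± 0.12 on the log2(CPM + 1) scale (adjusted p = 6.25e-10), Nrl rose by 4.68 ± 0.093 (adjusted p = 6.25e-10) and Nr2e3 rose by 4.35 ± 0.099 (adjusted p = 1.32e-09, all by limma). Of the 13719 genes tested 16.5% were called higher in CiPC and 17.2% lower, and by size of rise Crx ranked 39, Nrl 121 and Nr2e3 158. The 3 genes passed the filter only through CiPC and so had to differ, and their number is therefore not evidence of its own. The rise fell in the last interval: against day 8 the differences were 5.87 ± 0.14 for Crx, 4.78 ± 0.10 for Nrl and 4.24 ± 0.13 for Nr2e3, in a comparison that called 15.2% of genes higher.

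Esrrb stayed low in CiPC, at 0.679, 0.934 and 0.584 CPM. These values overlap with MEF and day 5, and with day 8 by 1 library, CiPC replicate 2. It was not tested with the filter. Without the filter it was above MEF by 0.32 ± 0.12 (adjusted p = 0.0426) and below day 8 by 0.37 (log2 difference -0.37 ± 0.14, adjusted p = 0.0389 by limma), both under 2-fold.

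**Figure D2:**
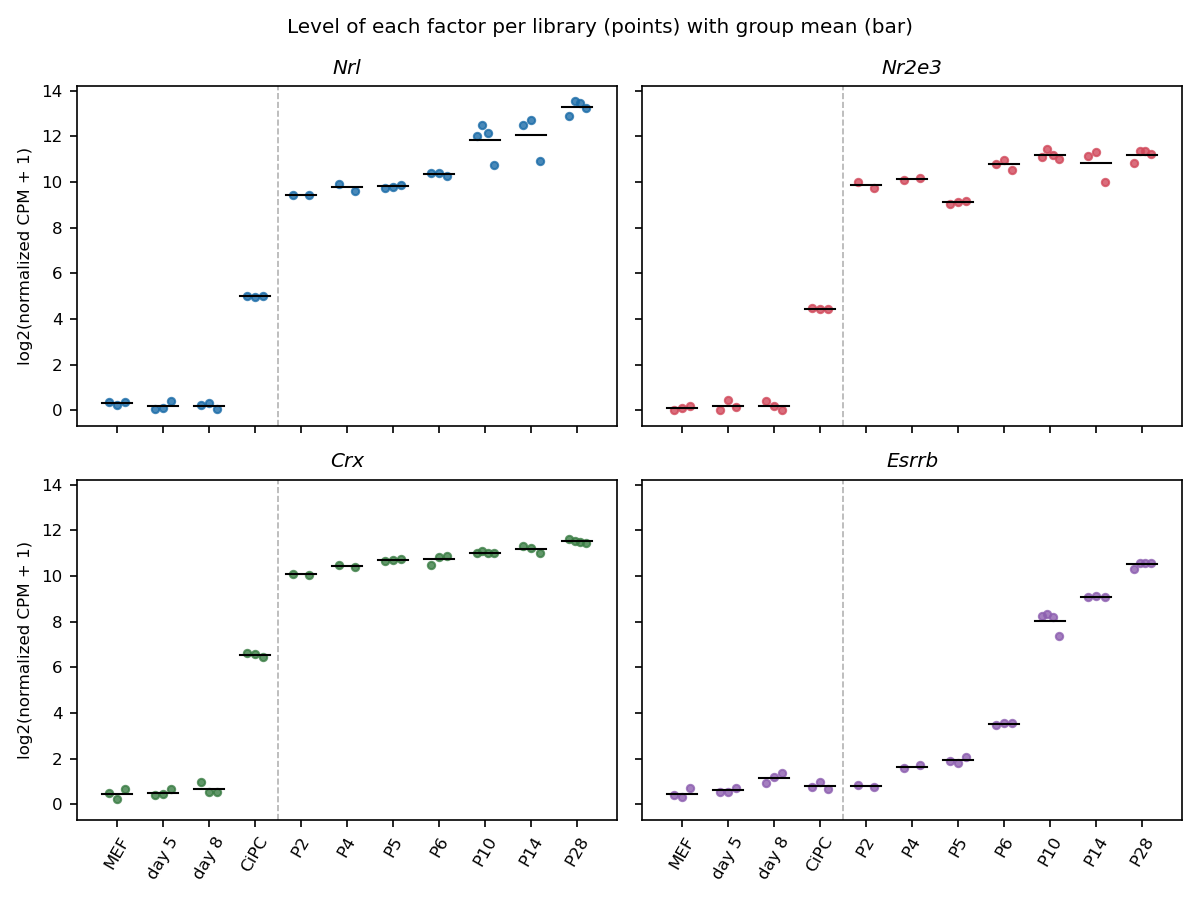
Each panel shows 1 factor as log2(normalized CPM + 1), with 1 point per library and a bar at the group mean of the log2 values. Cultured cells are left of the dashed line and rods by age are right of it. Nrl, Nr2e3 and Crx first leave the floor in CiPC, while Esrrb leaves it among rods between P4 and P10.

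The genes that act around the 4 factors were described by lists. In MEF 18 of 25 rod genes, 6 of 12 partner factors and 7 of 13 cone genes were under 1 CPM in every library, so those that were tested passed the filter through CiPC and could hardly be lower there, and the counts are descriptions beside the 16.5% of all genes called higher. Of 12 partner factors, 11 were tested between CiPC and MEF, 7 were higher, 1 was lower and 3 were not called, with a median difference of 4.66 against -0.053 over all genes tested. Otx2, which acts upstream of Crx, was at 74.1 CPM in CiPC and 0.228 in MEF. Rorb, the nuclear receptor needed for Nrl expression, was at 69.9 and 0.758 CPM, Neurod1 at 39.4 and 0.209 CPM, and Samd7, a repressor of non-rod genes, at 46.2 and 0.232 CPM. Mef2c was the member that fell, from 25.5 to 1.18 CPM. Of 25 rod genes, most of them known targets of Crx and Nrl, 23 were tested, 21 were higher, none was lower and 2 were not called, with a median of 3.31. The interphotoreceptor protein gene Rbp3 (184 CPM), phosducin, Pdc (70.0 CPM), the disc rim gene Prph2 (56.1 CPM) and Rp1 (49.2 CPM) had the largest differences. All 4 were under 1 CPM in MEF.

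Relatives of the 4 factors were also measured, since family members share binding sites. Of 12 such genes 10 are in the table, and 5 were higher in CiPC than in MEF, 2 lower and 3 not called, with a median of 1.03. Otx2 is also among the partner factors, so it is counted in both lists throughout. Nr2e1, the closest relative of Nr2e3 and a factor of neural and retinal progenitors, reached 78.8 ± 3.59 CPM (SD, n = 3) in CiPC against 0.0839 in MEF. In P5 rods Nr2e1 was at 3.35 ± 0.629 CPM (SD, n = 3), so the relatives differed in opposite directions: Nr2e3 stood at 557 ± 31.0 CPM in P5 rods against 20.8 ± 0.546 in CiPC (SD, n = 3). Maf, a relative of Nrl, was already at 101 CPM at day 5 and 106 CPM at day 8 and stood at 93.4 CPM in CiPC, against 17.2 in MEF. The rise by day 5 passed the test (2.48 ± 0.049, adjusted p = 8.15e-11 by limma), at a time when Nrl was still under 1 CPM. Esrrg, a relative of Esrrb, was at 8.40 CPM in CiPC and 1.42 in MEF. Mafk and Esrra fell, although the call for Esrra was lost when libraries were scaled to equal sums.

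Cone genes bear on Nr2e3, which is known to hold them down in rods. Of 9 cone genes tested between CiPC and MEF, 7 were higher and Pde6h was lower. The call for Pde6h was lost when libraries were scaled by median of ratios or to equal sums. Gnb3 reached 204 CPM in CiPC against 0.319 in MEF, while Thrb, Gnat2 and Pde6c were at 8.58, 8.27 and 3.13 CPM. The sum over 13 cone genes ran from 227 to 246 CPM in CiPC and from 1110 to 1191 CPM in P5 rods, and without Gnb3 from 30.1 to 35.4 and from 169.5 to 179.7 CPM (12 genes). In every CiPC library 6 of the 13, Opn1mw, Arr3, Pde6h, Cnga3, Rxrg and Kcne2, were under 1 CPM.

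Set against the P5 rods of the same series, all 4 factors were lower in CiPC. Nrl was at 864, 886 and 939 CPM in P5 rods. Nr2e3 was at 522, 566 and 582 CPM, Crx at 1621, 1658 and 1712 CPM, and Esrrb at 2.73, 2.53 and 3.25 CPM. The CiPC mean was thus 3.42% of the P5 mean for Nrl, 3.73% for Nr2e3, 5.59% for Crx and 25.8% for Esrrb. No CiPC library reached a P5 library for any of the 4.

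On the log2(CPM + 1) scale CiPC differed from P5 rods by -4.82 ± 0.054 for Nrl, -4.68 ± 0.061 for Nr2e3, -4.15 ± 0.060 for Crx and -1.15 ± 0.12 for Esrrb (adjusted p = 1.27e-05 for Esrrb by limma, smaller for the others). Esrrb was under 1 CPM in every CiPC library, passed the filter only through P5 rods and could hardly be higher in CiPC. Without the filter its difference was -1.15 (adjusted p = 1.5e-05 by limma). In this comparison 18.5% of the genes tested were called lower in CiPC and 24.8% higher. Of the genes called, 57.4% were higher in CiPC with the deposited values and 46.6% after quantile normalization. The markers of other retinal cells moved as well. The summed level of 8 Müller glia genes was 5114 to 5405 CPM in CiPC and 220 to 243 CPM in P5 rods. Of these genes 7 of 7 tested were higher in CiPC, and only Aqp4 was under 1 CPM in every CiPC library. That sum was already 2951 to 3029 CPM in MEF, 1816 to 1941 CPM at day 5 and 2106 to 2401 CPM at day 8. The summed level of 8 fibroblast genes was 99.1 to 125 CPM in CiPC, against 8330 to 9914 CPM in MEF and 14.0 to 15.9 CPM in P5 rods. Between MEF and CiPC this sum was higher, at 45952 to 48008 CPM at day 5 and 50488 to 53859 CPM at day 8. None of the 8 genes was at 0 in CiPC. The summed level of 9 bipolar genes was 365 to 431 CPM in CiPC, 74.2 to 83.1 CPM in MEF and 1173 to 1232 CPM in P5 rods. Their part in the lower levels of the factors was not tested.

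The partners were lower in CiPC as well, but unequally. Of 11 tested, 8 were lower than in P5 rods, none was higher and 3 were not called. Samd7 was at 46.2 against 923 CPM, Samd11 at 39.6 against 653 CPM, Neurod1 at 39.4 against 538 CPM and Prdm1, which keeps photoreceptor precursors from the bipolar fate, at 9.23 against 111 CPM. Otx2 was at 74.1 against 605 CPM. Rax, at 29.7 CPM in CiPC, was not called (-0.30 ± 0.22, adjusted p = 0.232 by limma). Of the relatives, 5 were higher in CiPC (Nr2e1, Maff, Mafk, Maf and Nr2f1) and 3 were lower (Otx2, Esrrg and Mafg). Otx2 is counted among the partners as well. Of the rod genes 24 of 25 were lower.

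Rods of other ages gave different distances. Against P2 rods, the CiPC level was 4.44% for Nrl, 2.22% for Nr2e3 and 8.57% for Crx. Those 3 factors were lower by limma, with differences of -4.45 ± 0.087, -5.42 ± 0.10 and -3.53 ± 0.094, in a comparison that called 18.6% of genes lower. Esrrb was at 0.789 and 0.681 CPM in P2 rods, inside the CiPC range, and its difference without the filter was -0.0065 ± 0.12 (adjusted p = 0.965 by limma). Against P28 rods the CiPC level was 0.303% for Nrl, 0.874% for Nr2e3, 3.16% for Crx and 0.0502% for Esrrb. All 4 were lower there, among 25.1% of genes called lower. Esrrb was under 1 CPM in every CiPC library and passed the filter only through P28 rods. It could hardly be higher in CiPC, so nothing is read from that number. With libraries scaled to equal sums the shares of the P28 level were 0.771%, 2.22%, 7.97% and 0.127%. P2 and P28 rods belong to the older series, so cell type and series cannot be told apart in both comparisons.

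**Figure D3:**
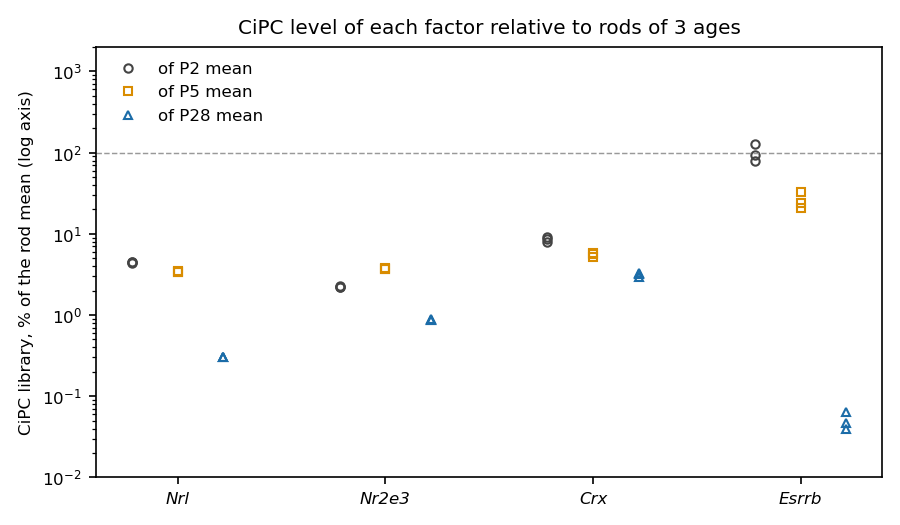
Each point is 1 CiPC library as a percentage of the mean of P2, P5 or P28 rods, on a log axis, for each factor. The shares of Crx spread from 3.16% to 8.57% between reference ages on average, and those of Esrrb from 0.0502% to 99.7%.

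Ratios between 2 factors within a library do not change when a library is multiplied by 1 factor, apart from the added 1 CPM, but quantile normalization can change them. CiPC were compared with the 10 rod libraries of P2 to P6 over the 6 pairs, with a two-sided exact permutation test and Benjamini-Hochberg adjustment over the 6. The log2 ratio of Nrl to Crx was -1.57 ± 0.087 (SD, n = 3) in CiPC and -0.64 ± 0.25 (SD, n = 10) in the rods, and the groups did not overlap (exact p = 0.00699, the smallest this design allows, adjusted p = 0.00839). The ratio of Nr2e3 to Crx was -2.11 ± 0.065 in CiPC and -0.57 ± 0.73 in the rods, with the same p. Among these rods its mean was -1.58 in P5, against -0.22 in P2, -0.31 in P4 and 0.046 in P6 rods. With quantile normalization the difference in Nr2e3 to Crx was -1.51 and did not pass the test (exact permutation, adjusted p = 0.143). On the deposited scale both ratios to Crx were lower in every CiPC library than in any of these rods. The rods pool several ages and both series, and only P5 rods share a series with CiPC. The p-values of these ratios therefore mix cell type with series and age. The ratio of Nrl to Nr2e3 was 0.54 ± 0.027 against -0.079 ± 0.54, with overlap (exact p = 0.14).

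The 3 ratios to Esrrb were lower in CiPC, with log2 differences of -2.64 for Crx, -3.56 for Nrl and -4.18 for Nr2e3 (exact permutation, adjusted p = 0.00839 for each). Esrrb is near 1 CPM in CiPC, so the added 1 CPM bounds these 3 ratios. With P5 rods of the same series alone, 3 libraries against 3 cannot give a p under 0.1, and the differences were -0.68 for Nrl to Crx, -0.53 for Nr2e3 to Crx and -0.15 for Nrl to Nr2e3. The last of these has the opposite sign to the comparison with all 10 rod libraries.

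**Figure D4:**
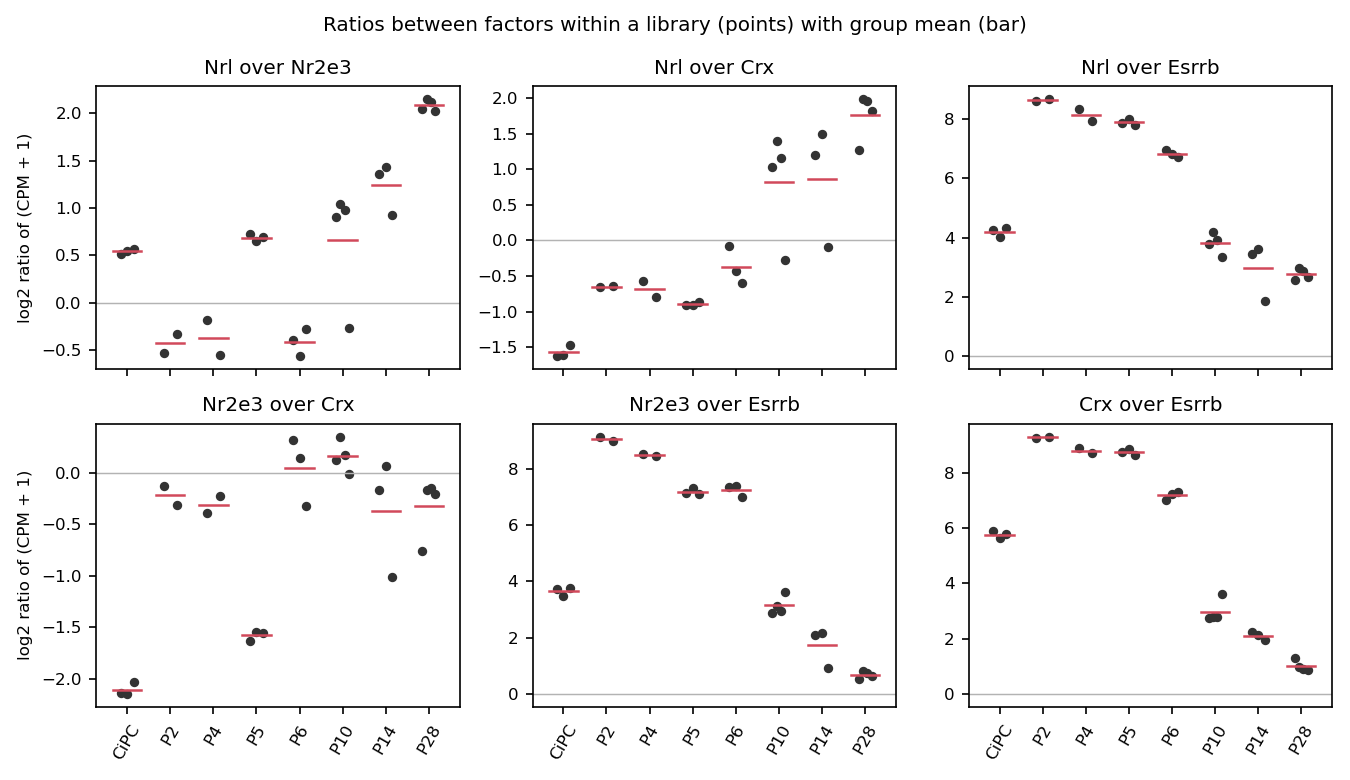
Each panel gives the log2 ratio of (CPM + 1) of 2 factors in every CiPC and rod library (points) with the group mean (bar). CiPC lie lowest for Nrl over Crx and Nr2e3 over Crx, P5 rods stand between CiPC and the other young rods for Nr2e3 over Crx, and the 3 ratios to Esrrb fall from P2 to P28.

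P5 rods differed from the older series in Nr2e3. Nr2e3 was at 1102 and 1149 CPM in P4 rods and at 1795, 2001 and 1491 CPM in P6 rods, and every one of these 5 libraries was above all 3 P5 libraries. P5 rods were lower than the mean of P4 and P6 by 1.33 on the log2 scale (-1.33 ± 0.12, adjusted p = 5.71e-06 by limma). Of the genes tested 13.1% were called lower and 21.3% in either direction. Nrl (-0.26 ± 0.12, adjusted p = 0.0736) and Crx (0.11 ± 0.13, adjusted p = 0.465) were not called, and Esrrb (-0.66 ± 0.14, adjusted p = 0.00163) was under 2-fold. The sum of 8 Müller glia genes was 220 to 243 CPM in P5 rods against 736 to 1201 CPM over P4 and P6 rods. The sum of 9 bipolar genes differed the other way, at 1173 to 1232 CPM in P5 rods against 332 to 352 in P4 and 539 to 618 in P6 rods, with 6 of 9 called higher. Their part in the level of Nr2e3 was not tested. Otx2 was at 605 ± 4.38 CPM (SD, n = 3) against 1091 ± 49.7 (SD, n = 2) and 1104 ± 131 (SD, n = 3). Age and series cannot be told apart here, since all P5 libraries are of 1 series and all P4 and P6 libraries of the other.

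P5 rods also give the contrast with fibroblasts within 1 series. Crx was higher in P5 rods than in MEF by 10.23 ± 0.096 on the log2(CPM + 1) scale, rank 4 of 14085 genes by size. Nrl was higher by 9.50 ± 0.065 and Nr2e3 by 9.02 ± 0.077. Esrrb was higher by 1.47 ± 0.13, at a P5 level of 2.83 ± 0.371 CPM (SD, n = 3). All 4 were called, in a comparison where 24.5% of genes were called higher, but each was under 1 CPM in every MEF library and passed the filter only through P5 rods, so nothing is read from that number.

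Across the ages of the older series the 4 factors followed different courses. Nrl was at 698 and 682 CPM at P2, 972 and 780.2 at P4, 1364, 1348 and 1229.9 at P6, and 4149, 5848, 4523 and 1697 at P10. It was at 5874, 6824 and 1943 CPM at P14 and at 7587, 11843, 11269 and 9743 at P28. Every P28 library was above every library of P2 to P14. Between neighbouring ages the ranges of P10 and P14 overlapped and those of P2 and P4, P4 and P6, P6 and P10, and P14 and P28 did not.

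By the fit over 18 libraries, Nrl rose from P6 to P10 by 1.49 ± 0.42 (adjusted p = 0.0128) and from P14 to P28 by 1.22 ± 0.42 (adjusted p = 0.0255, limma). In those steps 7.07% and 4.22% of genes were called higher. Neither step was called with quantile normalization, where the differences were 0.66 and 0.026, and the second was 0.50 with libraries scaled to equal sums (adjusted p = 0.166 by limma). Without P14 replicate 3 the second of these was 0.65 (adjusted p = 0.177) and was not called, and without P28 replicate 2 or P28 replicate 3 its adjusted p was 0.0620 or 0.0583. Without both libraries that stand apart the first was 1.87 (adjusted p = 9.80e-07).

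On the deposited scale Esrrb was called higher in 4 of the 5 steps between neighbouring ages, and the calls of the last 2 steps depended on the scaling. It was at 0.789 and 0.681 CPM at P2, 2.03 and 2.25 at P4, and 10.1, 10.9 and 10.8 at P6. It reached 302, 320.1, 296 and 165 CPM at P10, then 535, 555 and 533 at P14, and 1269.9, 1510.4, 1537 and 1523 at P28. No 2 ages overlapped.

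From P4 to P6 Esrrb rose by 1.89 ± 0.22 (adjusted p = 0.000481), rank 13 of 13884 genes, where 0.252% of genes were called higher. From P6 to P10 it rose by 4.50 ± 0.18 (adjusted p = 9.93e-11), rank 8. From P14 to P28 it rose by 1.43 ± 0.18 (adjusted p = 2.13e-05, all by limma), and this step was under 2-fold, and so not called, with quantile normalization (0.79) and with libraries scaled to equal sums (0.70). The step from P2 to P4 was 0.86 ± 0.24 and was not called (adjusted p = 0.0959, unadjusted p = 0.00243), with 0 of 4 members called there by limma and 1, Esrrb, at an unadjusted p under 0.05, as were 11.7% of all genes. In that step 0.432% of genes were called higher. The step from P10 to P14 was 1.04 ± 0.18 (adjusted p = 0.00239), where 1.04% of genes were called higher, and it was under 2-fold without P10 replicate 4 (0.82), with quantile normalization (0.82), with libraries scaled to equal sums (0.88) and with the replicate number as a block (0.94).

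Crx and Nr2e3 covered a narrower range. Crx was at 1104 and 1067 CPM at P2, 1448 and 1348 at P4, 1443, 1813 and 1861 at P6, and 2032, 2219.5, 2028 and 2060.0 at P10. It was at 2568, 2418 and 2064 CPM at P14 and at 3132, 2983, 2885 and 2768 at P28, and no step between neighbouring ages was called. Nr2e3 was at 1011 and 858 CPM at P2, between 1102 and 2001 over P4 and P6, and at 2217, 2834, 2293 and 2041 at P10. It was at 2289, 2527 and 1022 CPM at P14 and at 1843, 2665, 2602 and 2399 at P28, with P10, P14 and P28 overlapping. No step was called for Nr2e3 either.

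From P2 to P28 all 4 factors rose on the deposited scale, in a comparison that called 19.7% of genes higher and 31% lower. The difference was 9.71 ± 0.21 for Esrrb (rank 7), 3.85 ± 0.47 for Nrl, 1.44 ± 0.20 for Crx (adjusted p = 6.99e-06) and 1.34 ± 0.31 for Nr2e3 (adjusted p = 0.00114, limma). Esrrb was under 1 CPM in every P2 library and passed the filter through older rods, so it could hardly be lower at P28. The directions of Crx and Nr2e3 depended on the scaling. With libraries scaled to equal sums the differences were -0.064 and -0.16, and with quantile normalization -1.14 and -1.08, whereas Nrl (2.35 and 1.38) and Esrrb (8.45 and 9.11) remained higher under both.

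Markers of other retinal cells also differed between these ages. From P2 to P28, 5 of 8 Müller glia genes, 5 of 9 bipolar genes and 6 of 7 amacrine, horizontal and ganglion cell genes were called lower, and 1, 2 and 0 were called higher, but with quantile normalization Pcp2, Cabp5 and Isl1 of the bipolar genes and Calb2 and Rbpms of the last list had the opposite sign. The summed level of the Müller glia genes was 1095 to 1097 CPM at P2 and 169 to 408 CPM at P28. For the bipolar genes the sum was 249.5 to 289.5 CPM at P2 and 255 to 411 CPM at P28, with overlap, and for the last list 270.0 to 284 CPM and 50.2 to 64.8 CPM. From P14 to P28, 8 of 8, 8 of 9 and 6 of 7 were called lower, beside 2348 of all 13884 genes tested, while 586 genes were called higher. With quantile normalization the counts called lower were 7, 6 and 3, beside 809 of all genes, while 548 were called higher. With libraries scaled to equal sums they were 8, 8 and 6, beside 4188 lower and 56 higher. The part of the cells marked by these lists in the levels of the 4 factors was not tested.

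The median of all genes tested was itself at -0.29 with the deposited values, -1.39 after scaling to equal sums and 0.081 after quantile normalization. Relative to that median, Crx stood at 1.73, 1.32 and -1.22 and Nr2e3 at 1.63, 1.22 and -1.16 in the same order. The share of called genes that were higher at P28 was 38.9%, 6.94% and 51.3%. The means at P2 were 6.83% of those at P28 for Nrl, 39.3% for Nr2e3, 36.9% for Crx and 0.0504% for Esrrb, and 19.5%, 112%, 104% and 0.143% after scaling to equal sums.

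**Figure D5:**
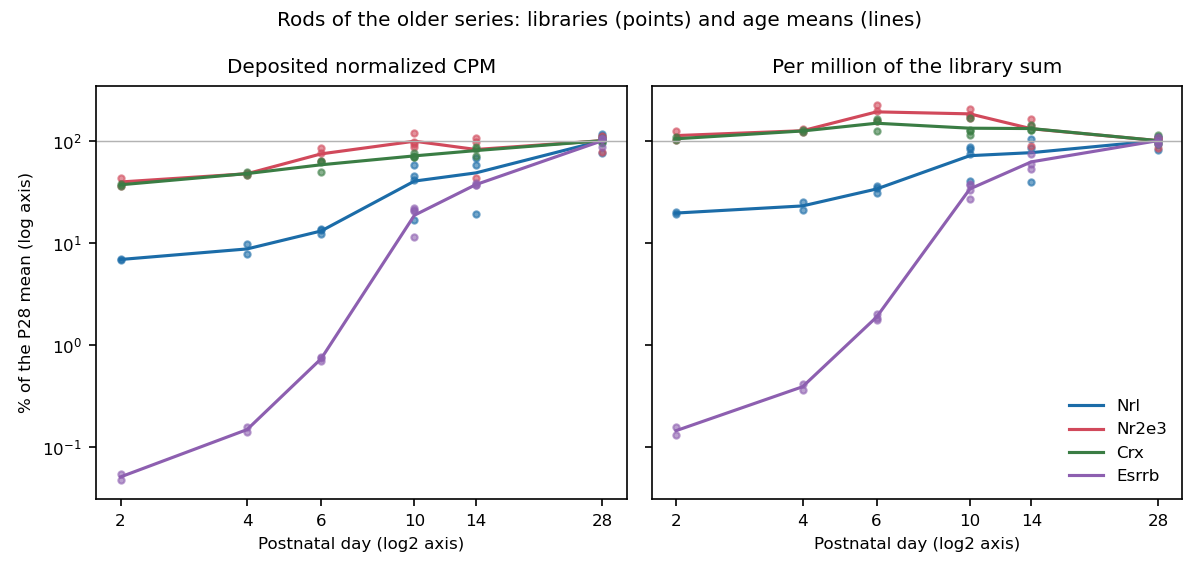
Each factor in the rods of the older series is given as a percentage of its P28 mean on a log axis, against age on a log2 axis, with points for libraries and lines through age means. On the deposited scale (left) all 4 lines begin below 100% and end at it, with a dip of Nr2e3 at P14, and with libraries scaled to equal sums (right) Crx and Nr2e3 begin above it, at 104% and 112%, while Nrl begins at 19.5% and Esrrb at 0.143%.

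The order of the factors changed with age. Per kilobase of the median coding transcript (1928 bases for Nrl, 2037 for Nr2e3, 2174.5 for Crx and 2363 for Esrrb), P2 rods had a level of 499 ± 11.9 CPM per kilobase for Crx, 459 ± 53.3 for Nr2e3, 358 ± 5.93 for Nrl and 0.311 ± 0.0325 for Esrrb (SD, n = 2). P28 rods had 5244 ± 986 for Nrl, 1353 ± 70.9 for Crx, 1167 ± 183 for Nr2e3 and 618 ± 53.8 for Esrrb (SD, n = 4). Nrl thus went from below Crx to above it, and Esrrb remained the lowest of the 4, its highest P28 library being at 650.3 CPM per kilobase and the lowest of Nr2e3 at 905. In CiPC the order was Crx at 42.8 ± 2.61, Nrl at 15.9 ± 0.146, Nr2e3 at 10.2 ± 0.268 and Esrrb at 0.310 ± 0.0766 CPM per kilobase (SD, n = 3).

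Ratios over age were tested between P2 and P4 rods (4 libraries) and P14 and P28 rods (7 libraries). The log2 ratio of Nrl to Nr2e3 went from -0.40 ± 0.18 to 1.72 ± 0.48 (SD) and that of Nrl to Crx from -0.67 ± 0.090 to 1.38 ± 0.72, neither with overlap (exact permutation p = 0.00606, the smallest possible, adjusted p = 0.00727). The ratio of Nrl to Esrrb changed by -5.52, of Nr2e3 to Esrrb by -7.64 and of Crx to Esrrb by -7.56, with the same exact p. Nr2e3 to Crx did not pass the test (-0.27 ± 0.11 and -0.34 ± 0.39, difference -0.076, exact p = 0.782), and the groups overlapped.

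Among the partners, the largest changes over the same ages ran in both directions. From P2 to P28, 3 of 12 partner factors rose, 5 fell and 4 were not called, beside 19.7% and 31% of all genes. Prdm1 went from 553 to 7.12 CPM and Onecut1 from 13.1 to 0.0942 CPM, while Mef2c went from 1.56 to 287 CPM. Otx2 fell from 1066 to 326 CPM. Mef2d and Nr1d1 also rose on the deposited scale and had the opposite sign with libraries scaled to equal sums. Of the 10 relatives 8 fell, with Nr2e1 going from 62.6 to 1.57 CPM, and Esrrg was the 1 that rose, from 48.5 to 138 CPM, with the opposite sign after scaling to equal sums. Mafk fell on the deposited scale and had the opposite sign after quantile normalization.

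The rod genes rose in 25 of 25 cases from P2 to P28, with a median of 6.54 against -0.29 over all genes. The transducin gene Gnat1 went from 9.07 to 69103 CPM, the exchanger gene Slc24a1 from 0.826 to 10055 CPM, Guca1b from 0.907 to 6231 CPM and Pde6a from 6.84 to 15369 CPM. Rp1 had the opposite sign after quantile normalization. Of 13 cone genes 8 fell and 3 rose (Opn1mw, Arr3 and Thrb). Gngt2 went from 398 to 3.26 CPM, Rxrg from 31.2 to 0.315 CPM and Cngb3 from 72.6 to 3.21 CPM. The call for Arr3 was lost and Thrb had the opposite sign with libraries scaled to equal sums.

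Esrrb was also set beside the factors that accompany it in pluripotent cells, of which 7 of 11 are in the table. In CiPC against MEF, Sox2 was higher (34.8 against 1.30 CPM), Klf4 and Klf2 were lower and 3 were not called. The call for Klf2 was lost with libraries scaled to equal sums. Sox2 is also expressed by retinal glia and progenitors. Pou5f1 was under 1 CPM in every CiPC library. Against P5 rods, 5 of 6 tested were higher in CiPC, beside 24.8% of all genes called higher. Klf2, Klf4 and Klf5 were under 1 CPM in every P5 library. They passed the filter only through CiPC and could hardly be lower there, so the count is a description. From P2 to P28, 5 of 6 fell, beside 31% of all genes called lower, among them Sox2 from 65.7 to 0.683 CPM and Tbx3 from 36.3 to 0.103 CPM. All 7 were under 1 CPM in every P28 library. Those tested thus passed the filter through younger rods and could hardly rise, so nothing is read from that number.

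The genes whose log2(CPM + 1) pattern was most like each factor were listed by Pearson r, as a description over libraries that share groups and scaling. Over all 33 libraries, Nrl was closest to Tulp1 (r = 0.9985), Pdc (0.9971) and Ano2 (0.9964), and Nr2e3 to Lingo3 (0.9967), Impg2 (0.9936) and Ppef2 (0.9936). Crx was closest to Brsk2 (0.9954), Mak (0.9953) and Unc80 (0.9944), and Esrrb to Gnat1 (0.9908), Grtp1 (0.9893) and Gpr152 (0.9886). Over the 18 rod libraries of the older series, the closest genes were Slc25a5, Uqcrc1 and Impdh1 for Nrl (0.9959 to 0.9947), Prom1, Pde6b and Pdc for Crx (0.979 to 0.9767), and Slc24a1, Cplx4 and Pde6a for Esrrb (0.9974 to 0.9949). Nr2e3 had no gene above 0.9531 there, the value for Cpped1, followed by Nudt18 and Cnrip1.

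Among the 4 factors themselves, Crx and Nr2e3 had r = 0.9889 over all 33 libraries and 0.7864 over the 18 rod libraries, and Crx and Esrrb had 0.653 and 0.9464. By Spearman's rho Crx lay closer to Esrrb than to Nr2e3 in both sets, with 0.9549 against 0.9188 over all libraries and 0.9628 against 0.7296 over the rods. Crx and Nrl had r = 0.9818 and 0.928 in these sets, and rho of 0.9749 and 0.9525. By rho, Nrl was thus closer to Crx than Esrrb was over all libraries, and Esrrb was closer over the rods.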

How the data were processed

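RNA sequencing values of 33 libraries in 11 groups were analysed, and 3 further listed samples (P3 rods) were not analysed here. Quantification was by kallisto, per the submitters' processing notes. Not given in the sources used here are its version and index, the genome build and the scaling between libraries. The authors deposited 1 table of normalized CPM, a signal with 1 value for each gene in each library. Its counts are unknown, so depth per sample and its precision are unknown and no count model was fitted. All value columns were used.

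Groups were compared with limma 3.58.1 (R 4.3.3, mean trend) on log2(CPM + 1). Genes at 1 CPM or more in at least 3 libraries of a fit (2 where a group has 2) were tested. A call needed a Benjamini-Hochberg adjusted p under 0.05 over all genes tested and a 2-fold difference. Culture and CiPC comparisons used the groups compared. Rod ages used 1 fit of the 18 rod libraries other than P5, with P10 replicate 3 and P14 replicate 3 among them. P5 rods were compared with P4 and P6 in 1 fit. Ratios used exact permutation tests (scipy 1.17.1). On simulated data with 200 changed genes of 15289, at least 84.1% of 3-fold and 98.3% of 10-fold changes were recovered in each of 15 comparisons, with at most 17 unchanged genes called. The changed genes were drawn only from genes well above the floor, with normal noise on the log2 scale. Recovery near the floor, where the members lie before day 11 and Esrrb lies in CiPC and the youngest rods, was therefore not covered.

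The members, the lists and the tests were chosen with earlier results of these data known, and 2 genes of the lists are not reported here. All members are named. Of a list, up to 4 called members with the largest difference and any called against the others were eligible, and further members named for comparison were chosen after their values were seen. Likeness used the 3 genes of highest Pearson r, leaving out predicted genes. Coordinates are from GENCODE M21 and promoters from RefSeq (GRCm38.p6), matched by symbol for 4 of 4 genes. Alternatives covered pseudocounts of 0.5 and 0.1, no filter, scaling by quantiles or by median of ratios, no variance trend, the fold threshold, a fit of all libraries, the replicate number as a block and each library left out. Scaling to equal sums and leaving out the 2 libraries that stand apart were added after the data were seen.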

Additional observations from a re-analysis of the deposited data

Results flagged for a closer look

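In 8 groups of 4 libraries (P10 and P28 for each of the 4 factors), the gap between the highest or lowest library and its neighbour was compared with the group's range by Dixon's 95% limit, which chance passes in about 1 of 20 groups, and 3 passed. Crx was at 2219.5 CPM in P10 replicate 2, with the other P10 libraries between 2028 and 2060.0 CPM. Esrrb was at 165 CPM in P10 replicate 4, with the others between 296 and 320.1 CPM. Esrrb was at 1269.9 CPM in P28 replicate 1, with the others between 1510.4 and 1537 CPM. P10 replicate 4 is 1 of the 2 libraries that stand apart from their age, while P10 replicate 2 and P28 replicate 1 are not.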

How the results depend on the processing

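Of 1198 values under alternatives, 1151 were rated the same. Of these, 815 were single values that kept their direction and side of the threshold. The other 336 were counts of factors or ratios called that stayed equal or close, without regard to direction. With pseudocounts of 0.5 and 0.1, 1 factor (Esrrb) was called from P2 to P4. With quantile normalization, 1 was called from P6 to P10, 0 from P10 to P14 (Esrrb 0.82, adjusted p = 0.00574) and 0 from P14 to P28 (Nrl 0.026, Esrrb 0.79), and from P2 to P28 Nr2e3 (-1.08) and Crx (-1.14) reversed. With libraries scaled to equal sums, 0 were called from P10 to P14 and 0 from P14 to P28 (Nrl 0.50, Esrrb 0.70), and 2 from P2 to P28, where Nr2e3 (-0.16) and Crx (-0.064) reversed. Without the 2 libraries that stand apart, 0 were called from P10 to P14 and 1 from P14 to P28. With no fold threshold, 2 were called between P5 and the mean of P4 and P6. Leaving out each library gave 0 to 1 from P10 to P14 and 1 to 2 from P14 to P28, and changed no other count of factors. The ratio of Nr2e3 to Crx between old and young rods was 0.054 with quantile normalization and from -0.14 to 0.035 with 1 library left out (0.035 without P14 replicate 3), against -0.076. Between CiPC and rods of P2 to P6 it was -1.51 (exact permutation, adjusted p = 0.143) with quantile normalization. Against P5 rods alone 0 of the 6 ratios passed, since no p under 0.1 is possible there, and Nrl to Nr2e3 was -0.15. By Spearman's rho 0 of 12 most similar genes were shared over all libraries and 1 of 12 over the older rods. Apart from that small design, the causes were not tested. Scaling to equal sums moved the share of called genes that were higher from 48.9% to 63.1% for CiPC against MEF, 47.9% to 60.5% against day 8, 58.6% to 87% against P28, 44.5% to 58.3% for P5 against MEF, 30% to 18% from P2 to P4, 47.2% to 15.2% from P6 to P10, 27.7% to 13.7% from P10 to P14 and 20% to 1.32% from P14 to P28.

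Correlations of same-numbered replicates' deviations ran from -0.45 to 0.58 over 16 pairs of groups with 3 or more shared numbers. In 1 of the 16, P6 and P14 rods, which are not compared here, all were over 0.1 (0.17 to 0.19), and in P10 and P14 they ran from -0.45 to 0.58, so the numbers were not taken to pair the samples. With the replicate block 0 factors were called from P10 to P14 (Esrrb 0.94, adjusted p = 0.00851), and the other counts of factors were the same. Depth is unknown, so the error of values near 0 CPM, as for Esrrb before P6, cannot be given.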
